A study of Mus musculus with 10 samples.

Results

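The immediate-early genes Fos, Fosb, Jun, Junb, Egr1, Atf3, Ier2, Dusp1, Nr4a1 and Zfp36 were described in intestinal epithelial cells (IECs) of the colon. They were taken by gene name from a table of 55487 genes, and all 10 were found and had a mean of at least 1 TPM, the filter that 12870 genes passed. TPM is the abundance unit that RSEM gives, scaled by transcript length and to nearly the same total in every library. RNA was sequenced from IECs of 5 wild type (WT) and 5 RhoB-/- mice, all on the C57BL/6J background, one library per mouse. RhoB-/- mice lack the small GTPase RhoB in the whole body, so the loss is not limited to the epithelium. No treatment is named for these libraries, and per the study's methods mice were a few weeks old unless stated otherwise. The methods give WT mice as purchased males and RhoB-/- mice as generated at a mouse centre, without the sex of the latter, so genotype and source of the mice cannot be told apart. The methods describe IECs shaken off the tissue with EDTA and DTT, first on ice and then with EDTA at body temperature, before lysis in Trizol.

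Immediate-early genes are transcribed within minutes of a stimulus, without new protein synthesis, when MAP kinases activate transcription factors such as SRF with its ELK cofactors and CREB that already sit at or near their promoters. Their mRNAs are short-lived, many through AU-rich elements in the tail of the transcript, so their levels fall again quickly. Growth factors, cytokines, microbial products, calcium, stress and tissue handling are known to raise them. In the gut epithelium they are known as early responders to mitogens and injury. Among the products, FOS and JUN proteins pair to form the transcription factor AP-1, EGR1, ATF3 and NR4A1 are further transcription factors, and DUSP1 and ZFP36 (tristetraprolin) feed back, the first by dephosphorylating MAP kinases and the second by promoting decay of AU-rich mRNAs. Rhob, the gene deleted here, is itself known as an immediate-early gene.

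The upstream sequences of 4 of the genes are shown because they hold elements through which immediate-early genes are known to be switched on. They are RefSeq sequences on GRCm38.p6, written 5′ to 3′ on the strand of the gene and ending at the base before the RefSeq start. RefSeq promoters were matched for 8 of the 10 genes, all but Egr1 and Ier2. Capitals mark TGACG, the core of the cAMP response element that CREB binds. They also mark the TATA box, spelled TATAAA, and the binding site of EGR proteins, spelled GCGNGGGCG. The CArG box, the motif bound by SRF, is marked as well. Where a motif lies on the opposite strand its reverse complement is in capitals.
Fos, chr12:85473790-85473889, plus strand: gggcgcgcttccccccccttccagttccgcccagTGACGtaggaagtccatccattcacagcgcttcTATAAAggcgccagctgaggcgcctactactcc
Junb, chr8:84978749-84978868, minus strand: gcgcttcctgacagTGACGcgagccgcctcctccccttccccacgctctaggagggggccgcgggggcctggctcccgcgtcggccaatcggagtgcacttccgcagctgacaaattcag
Zfp36, chr7:28379229-28379378, minus strand: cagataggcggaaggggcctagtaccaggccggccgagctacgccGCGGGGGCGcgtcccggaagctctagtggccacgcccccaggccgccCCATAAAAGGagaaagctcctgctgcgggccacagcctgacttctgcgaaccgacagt
Nr4a1, chr15:101266726-101266845, plus strand: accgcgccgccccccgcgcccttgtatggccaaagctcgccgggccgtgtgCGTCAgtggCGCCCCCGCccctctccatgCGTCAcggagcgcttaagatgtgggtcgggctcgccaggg

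Both strands of the 250 bases upstream of each start were searched. The core TGACG was found in 6 of the 8 promoters (Fos, Fosb, Junb, Atf3, Dusp1 and Nr4a1), against 17.9% of 27025 promoters of the same length. The full cAMP response element TGACGTCA, which contains it, was found in Dusp1 alone of the 8, against 1.62% of promoters. The EGR site was found in 3 (Fosb, Zfp36 and Nr4a1), against 4.65%. Within these 250 bases a CArG box was found in Zfp36 alone of the 8, against 1.40%, and TATAAA in Fos alone, against 12.97%. Sites farther upstream, and the promoters of Egr1 and Ier2, were not searched. The AP-1 site TGANTCA was found in 0 of the 8 windows, against 6.87%. The 8 windows had a median GC content of 65.8% (58.4% to 74.4%), against 52% for all promoters. The shares were not matched for GC content, and enrichment of the motifs was not tested. A match of letters is a description of the window and not a bound site.

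The genes lie on 8 chromosomes in the GENCODE M21 annotation of GRCm38. Fos (ENSMUSG00000021250) is on chromosome 12, 85473890 to 85477273, plus strand, Jun (ENSMUSG00000052684) on chromosome 4, 95049034 to 95052222, minus strand, and Nr4a1 (ENSMUSG00000023034) on chromosome 15, 101254269 to 101274795, plus strand. Zfp36 (ENSMUSG00000044786) is on chromosome 7, 28376784 to 28380253, minus strand, and Fosb (ENSMUSG00000003545) is 9.07 Mb away on the same chromosome, 19302696 to 19310051, minus strand. Junb (ENSMUSG00000052837; chromosome 8, 84974484 to 84978718, minus strand) and Ier2 (ENSMUSG00000053560; 84661331 to 84662852, minus strand) are separated by 0.312 Mb. Egr1 (ENSMUSG00000038418) is on chromosome 18, 34859823 to 34864984, plus strand, Atf3 (ENSMUSG00000026628) on chromosome 1, 191170296 to 191218039, minus strand, and Dusp1 (ENSMUSG00000024190) on chromosome 17, 26505590 to 26562128, minus strand. The RefSeq starts used for the sequences of Zfp36 and Nr4a1 lie inside these annotated spans, downstream of the outermost annotated start. As is known for this class, most of the genes were short. Their span from first to last base had a median of 4699 bases, against 20132 bases for the 12857 tested genes with a position. Dusp1, Atf3 and Nr4a1 were above the latter median, at 56539, 47744 and 20527 bases. In the list, the longest transcripts had a median of 2.5 exons, against 7 for the tested genes.

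Rhob was measured in every library as a check of the labels. It stood at 171, 303, 365, 333 and 389 TPM in WT replicates 1 to 5, and 0.09, 0.1, 0.35, 0.57 and 111 TPM in RhoB-/- replicates 1 to 5. The library labelled RhoB-/- replicate 5 thus held Rhob RNA well above the other RhoB-/- libraries and below every WT library. The counts of the 10 genes, the fold change of Nr4a1 and the range over the others are also given without it. So are the pooled counts of related genes. Most other results are given only with this library. The share of TPM from mitochondrially encoded genes was 17.5% to 26.5% in WT and 10.3% to 22.4% in RhoB-/- libraries. All 15 epithelial markers passed the filter, with summed levels of 27855 to 31925 TPM in WT and 31480.3 to 47499.5 TPM in RhoB-/- libraries. The summed level of 17 immune markers, of which 6 passed the filter, was 7.28 to 12.2 TPM in WT and 20.8 to 49.7 TPM in RhoB-/- libraries, and that of 10 stromal markers, of which 3 passed, 4.23 to 6.29 and 7.24 to 37.1 TPM. Both sums were higher in every RhoB-/- library than in every WT library. No immune or stromal marker was at 0 in all libraries, while S100a8, S100a9 and Mzb1 were at 0 in every WT library. Sums of the 6 endothelial and of the 6 neural and glial markers stayed at or below 2.95 TPM in all libraries. The part of other cell types in the results was not tested. In RNA from many cells, fewer expressing cells and less RNA per cell cannot be told apart.

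The immediate-early genes were abundant in colonic IECs of both genotypes, and 1 of the 10, Nr4a1, passed the test between genotypes, with overlapping groups and a call that was lost in 7 of 10 fits that leave out a library and without the filter on low TPM. This count, 1 of 10 lower, is near the share of all genes tested that were lower, 13.5%. In WT the mean levels ordered as Fos, Jun, Ier2, Atf3, Junb, Egr1, Zfp36, Dusp1, Fosb and Nr4a1, from rank 111 (Fos) to rank 1429 (Nr4a1) among the 12870 genes by mean TPM. Fos stood above Jun in 10 of 10 libraries, Jun above Ier2 in 10 of 10 and Fosb above Nr4a1 in 10 of 10. In the middle of the order neighbours changed places between libraries. Ier2 stood above Atf3 in 4 of 10 libraries, Atf3 above Junb in 7 and Junb above Egr1 in 6. Egr1 stood above Zfp36 in 6 and Zfp36 above Dusp1 in 8. Some pairs differed in their counts between genotypes: Egr1 stood above Zfp36 in 5 of 5 WT and 1 of 5 RhoB-/- libraries. Atf3 stood above Junb in 2 of 5 WT and 5 of 5 RhoB-/- libraries, and Zfp36 above Dusp1 in 3 and 5. These pairs were picked after the values were seen, and the differences were not tested. No single order of these neighbours therefore held in all libraries. Genes farther apart could still be ordered: Ier2 and Junb each stood above Dusp1 in 10 of 10 libraries. TPM is scaled by transcript length, so these levels may be compared between genes.

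Fos and Jun, the leading AP-1 subunits, were the most abundant of the 10 genes. Fos, the founding member of the FOS family, which cannot form a dimer with itself and needs a JUN partner, was at 449, 812, 1392, 918 and 1458 TPM in WT replicates 1 to 5, and 981, 806, 1216, 956 and 1132 TPM in RhoB-/- replicates 1 to 5. Its mean was 1006 ± 421 TPM in WT and 1018 ± 159.9 TPM in RhoB-/- libraries (SD, n = 5 in each), a log2 fold change of 0.12 (SE 0.28, 95% confidence interval -0.49 to 0.73, adjusted p = 0.778 by limma). The WT values spanned the RhoB-/- values on both sides. Fosb, its closest relative, was lower, at 72.6, 130.0, 241, 185 and 233 TPM in WT replicates 1 to 5, and 155, 184, 195, 160.3 and 181 TPM in RhoB-/- replicates 1 to 5. It averaged 172 ± 71.3 TPM in WT and 175 ± 17.0 TPM in RhoB-/- libraries, a log2 fold change of 0.14 (SE 0.28, 95% confidence interval -0.46 to 0.75, adjusted p = 0.741 by limma). Again the RhoB-/- values all lay inside the WT range.

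Jun, which pairs with FOS proteins or with itself, was at 353, 589, 876, 647 and 794 TPM in WT replicates 1 to 5, and 519, 464, 668, 581 and 694 TPM in RhoB-/- replicates 1 to 5. Its mean was 652 ± 202 TPM in WT and 585 ± 97.5 TPM in RhoB-/- libraries, with a log2 fold change of -0.11 (SE 0.22, 95% confidence interval -0.59 to 0.38, adjusted p = 0.762 by limma). The RhoB-/- libraries again lay inside the WT range. Junb, a JUN protein with weaker activity of its own, was at 154, 246, 454, 252.3 and 435 TPM in WT replicates 1 to 5, and 231, 178, 263, 197 and 219 TPM in RhoB-/- replicates 1 to 5. It averaged 308 ± 131 TPM in WT and 217 ± 32.7 TPM in RhoB-/- libraries, with a log2 fold change of -0.40 (SE 0.26, 95% confidence interval -0.98 to 0.17, adjusted p = 0.287 by limma). The two-sided exact permutation test over all labellings of the libraries gave p = 0.254 for Junb, and the highest RhoB-/- value lay below WT replicates 3 and 5 only.

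Egr1, a zinc finger transcription factor that binds GC-rich sites, was at 108, 186, 442, 221 and 518 TPM in WT replicates 1 to 5, and 213, 175, 295, 275 and 319.9 TPM in RhoB-/- replicates 1 to 5. The means were 295 ± 176 TPM in WT and 256 ± 60.0 TPM in RhoB-/- libraries, with a log2 fold change of -0.01 (SE 0.37, 95% confidence interval -0.83 to 0.80, adjusted p = 0.982 by limma). The WT libraries differed among themselves 4.81-fold and the RhoB-/- libraries 1.82-fold. Atf3, a stress-induced member of the ATF/CREB family, was at 100.3, 169, 507, 235 and 534 TPM in WT replicates 1 to 5, and 265, 222, 343, 322 and 361 TPM in RhoB-/- replicates 1 to 5. It averaged 309 ± 199 TPM in WT and 303 ± 57.6 TPM in RhoB-/- libraries, with a log2 fold change of 0.22 (SE 0.40, 95% confidence interval -0.65 to 1.10, adjusted p = 0.717 by limma). Its 5.33-fold range over the WT libraries was the widest of the 10 genes.

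Ier2, a nuclear protein named for its early induction, was at 146, 269.7, 482, 289.9 and 475 TPM in WT replicates 1 to 5, and 209.5, 181, 345, 226 and 226 TPM in RhoB-/- replicates 1 to 5. Its mean was 333 ± 144 TPM in WT and 238 ± 62.8 TPM in RhoB-/- libraries, with a log2 fold change of -0.39 (SE 0.30, 95% confidence interval -1.04 to 0.26, adjusted p = 0.366 by limma). RhoB-/- replicate 3 stood apart from the other RhoB-/- libraries. Dusp1, the phosphatase that switches off p38 and JNK, was at 104, 190.2, 306, 208 and 316 TPM in WT replicates 1 to 5, and 167, 153, 209, 190.4 and 186 TPM in RhoB-/- replicates 1 to 5. It averaged 225 ± 88.2 TPM in WT and 181 ± 21.7 TPM in RhoB-/- libraries, with a log2 fold change of -0.21 (SE 0.26, 95% confidence interval -0.78 to 0.35, adjusted p = 0.573 by limma). The RhoB-/- values lay inside the WT range. Zfp36, the mRNA decay factor, was at 93.9, 181, 364, 212 and 381 TPM in WT replicates 1 to 5, and 264, 194, 312, 213 and 329.9 TPM in RhoB-/- replicates 1 to 5. Its means were 246 ± 123 TPM in WT and 263 ± 59.5 TPM in RhoB-/- libraries, with a log2 fold change of 0.23 (SE 0.33, 95% confidence interval -0.50 to 0.96, adjusted p = 0.645 by limma). WT replicate 1 was the lowest library and WT replicate 5 the highest.

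Nr4a1, an orphan nuclear receptor, was the least abundant member and the one that passed the test between genotypes. It was at 39.1, 69.3, 89.8, 84.9 and 97.0 TPM in WT replicates 1 to 5, and 31.3, 38.4, 53.3, 51.6 and 34.3 TPM in RhoB-/- replicates 1 to 5. WT replicates 2 to 5 lay above every RhoB-/- library, and WT replicate 1 lay among the RhoB-/- libraries. Nr4a1 fell from 76.0 ± 23.0 to 41.8 ± 10.1 TPM (SD, n = 5 in each), a log2 fold change of -0.81 (SE 0.24, 95% confidence interval -1.34 to -0.29, adjusted p = 0.0324 by limma), and the two-sided exact permutation test gave p = 0.0317. The call was close to the threshold and was mostly lost with 1 library fewer, while the direction held. Leaving out each library in turn kept the log2 fold change between -1.03 and -0.71, but the adjusted p by limma rose above 0.05 in 7 of 10 cases. It was 0.0659, 0.0692, 0.0905 and 0.0770 without WT replicates 2, 3, 4 and 5. Without RhoB-/- replicates 1, 2 and 5 it was 0.0868, 0.0675 and 0.0807. Without RhoB-/- replicate 5, the library with Rhob RNA, the log2 fold change was -0.75. Without WT replicate 1 it was -1.03, with an adjusted p of 0.00331 by limma. Without the filter on low TPM the adjusted p was 0.0821.

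**Figure D1:**
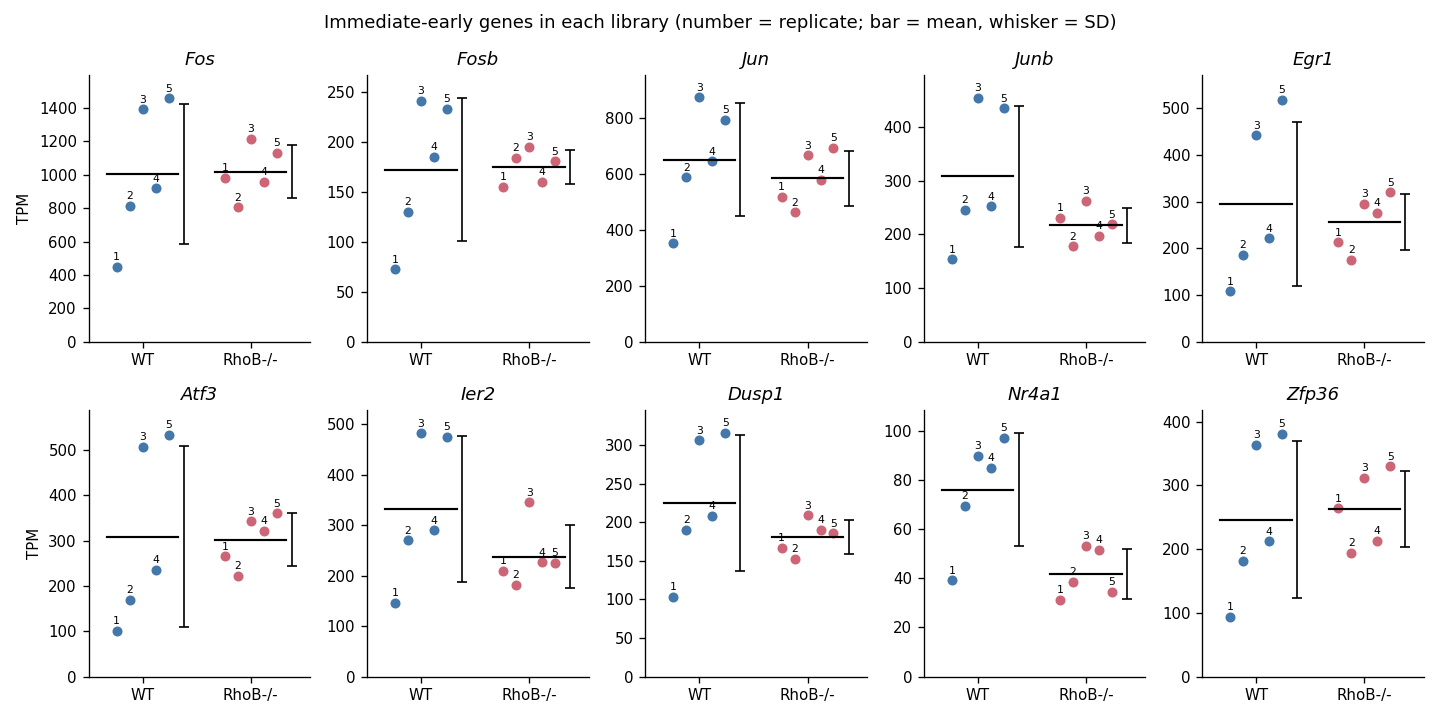
Level of each of the 10 immediate-early genes in TPM (vertical axes from 0, a scale per gene) in the 5 WT and 5 RhoB-/- libraries. Each point is a mouse, the number is its replicate, the horizontal bar is the mean and the whisker the SD. WT values spread from replicate 1 to replicates 3 and 5 in each gene, and only Nr4a1 has WT replicates 2 to 5 above all RhoB-/- libraries.

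Over the list, 0 of the 10 genes were higher and 1 (Nr4a1) was lower in RhoB-/- IECs at an adjusted p below 0.05. Among the 12870 genes tested, 995 (7.73%) were higher and 1734 (13.5%) lower, so 1 of 10 is near the background. The split of all genes depended on the scaling, with 2010 higher and 1645 lower after centring each library, while the counts for the 10 genes remained 0 and 1. At the thresholds of the study (p below 0.05 before adjustment, with more than a 1.5-fold change) the counts for the 10 genes were the same, against 6.37% higher and 8.33% lower of all genes tested. In 0 of the 10 genes were the groups free of overlap, against 14.5% of genes tested. The median log2 fold change was -0.06 for the 10 genes, with 4 positive and 6 negative values, and -0.13 for all genes tested. The 95% confidence intervals of the 9 genes that did not pass the test had lower bounds from -1.04 (Ier2) to -0.46 (Fosb) and upper bounds from 0.17 (Junb) to 1.10 (Atf3), so a log2 fold change of 1 lay inside the interval of Atf3 alone and one of -1 inside that of Ier2 alone. Without RhoB-/- replicate 5, 0 of the 10 genes were called in either direction, and the log2 fold changes of the 9 genes lay between -0.41 (Junb) and 0.15 (Atf3). With the libraries centred on their median deviation Jun was at 0.01 and Egr1 at 0.10, so the sign of their small differences depends on the scaling.

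**Figure D2:**
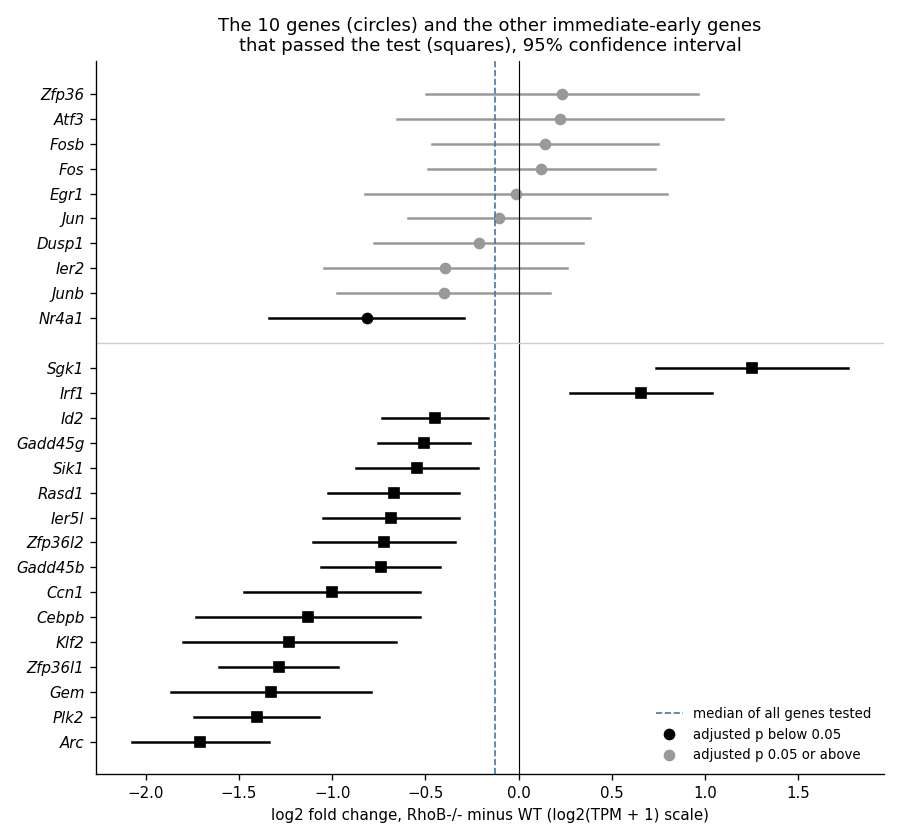
Log2 fold change of RhoB-/- minus WT on the log2(TPM + 1) scale for the 10 genes (circles) and for the other immediate-early genes that passed the test (squares), with 95% confidence intervals. Black marks genes with an adjusted p below 0.05 and the dashed line the median of all genes tested, -0.13. Nr4a1 is the 1 black circle, while 14 squares lie below 0 and 2 above.

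The genes moved together between WT mice. WT replicate 1 was the lowest WT library in 10 of 10 genes, against 43.8% of the genes tested and 61.4% of the 1844 genes at least as abundant as Nr4a1. WT replicates 3 and 5 were both above the other WT libraries in 10 of 10, against 8.45% of tested and 15.2% of abundant genes. Both patterns held together in 5.66% and 11.2%. The highest of all 10 libraries was WT replicate 3 or 5 in 10 of 10 genes, against 9.34% of tested and 7.81% of abundant genes, and the lowest was WT replicate 1 in 9 of 10 (all but Nr4a1), against 18.2% and 31.1%. These orders were chosen after the values were seen, and genes of the same library are not independent, so they are given with no test. The WT order held in 10 of 10 genes as well with centred libraries, with quantile normalization and without mitochondrial genes.

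Averaged over the genes and relative to each gene's own mean, WT replicate 1 stood at -0.995 on the log2 scale, WT replicates 2 and 4 at -0.18 and 0.05, and WT replicates 3 and 5 at 0.70 and 0.73. The RhoB-/- libraries stood closer together, at -0.19, -0.35, 0.22, -0.06 and 0.06 in replicates 1 to 5. The highest RhoB-/- library was replicate 3 or 5 in 10 of 10 genes, as it was in 76.6% of genes tested and 90.6% of the abundant genes. The lowest was replicate 2 in 8 of 10 genes, against 53.0% and 71.6%. Rhob itself had the WT order of the 10 genes, with replicate 1 lowest and replicates 3 and 5 highest.

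**Figure D3:**
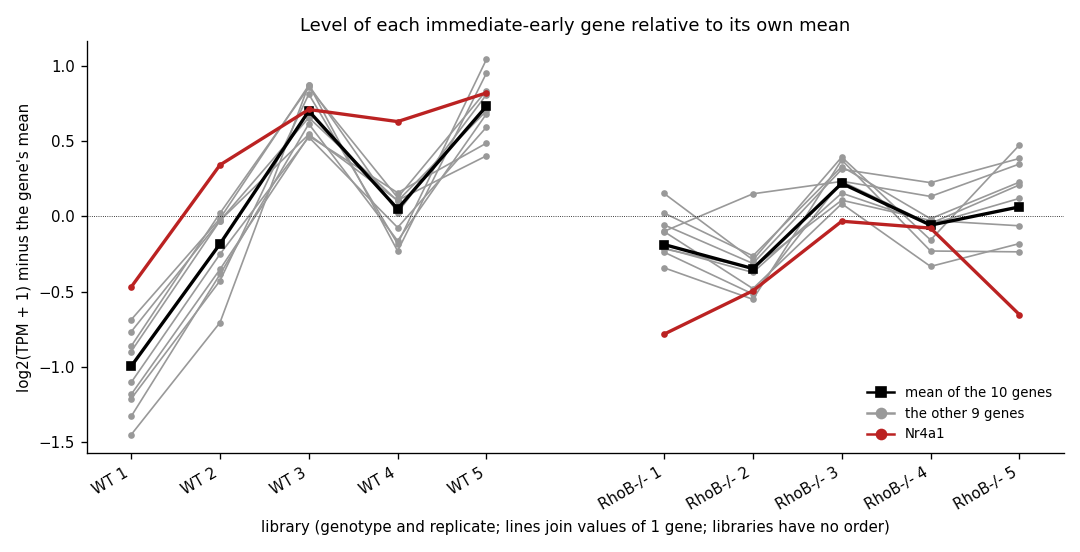
Level of each gene in each library, as log2(TPM + 1) minus the gene's mean over the 10 libraries. Black squares are the mean of the 10 genes, red is Nr4a1 and grey the other 9 genes. The WT mean runs from -0.995 in replicate 1 to 0.73 in replicate 5, the RhoB-/- mean from -0.35 to 0.22.

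The spread between mice was larger in WT than in RhoB-/- for 10 of 10 genes, against 41.2% of the genes tested and 27.5% of the abundant genes. The SD of log2 levels had a median over the 10 genes of 0.698 in WT and 0.267 in RhoB-/- libraries, while over all genes tested it was 0.204 and 0.241. Without WT replicate 1 the WT median was 0.436, and the SD was larger in WT in 9 of 10 genes (all but Nr4a1), against 37.1% of genes tested. The difference in spread was not tested.

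Other measures of the libraries are set beside this pattern. The summed level of the 10 genes was 1619, 2842, 5154, 3254 and 5242 TPM in WT replicates 1 to 5 and 3036, 2595, 3900.4, 3173 and 3681 TPM in RhoB-/- replicates 1 to 5. The mitochondrial share was 26.5, 17.5, 18.0, 18.2 and 20.3% in the WT libraries, highest in replicate 1, and 19.4, 22.4, 10.3, 17.1 and 12.1% in the RhoB-/- libraries, highest in replicate 2 and lowest in replicates 3 and 5. The summed level of 13 heat shock genes, a different class of genes induced by stress, was 4913, 6292, 4857, 5970.5 and 5019.6 TPM in WT and 2452, 1708, 2898, 2942 and 2487 TPM in RhoB-/- libraries. The heat shock sums therefore separated the genotypes, which the immediate-early sums did not, and WT replicates 3 and 5 were not high in them. The part of RNA quality, cell collection or mitochondrial RNA in the spread of the immediate-early genes was not tested.

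**Figure D4:**
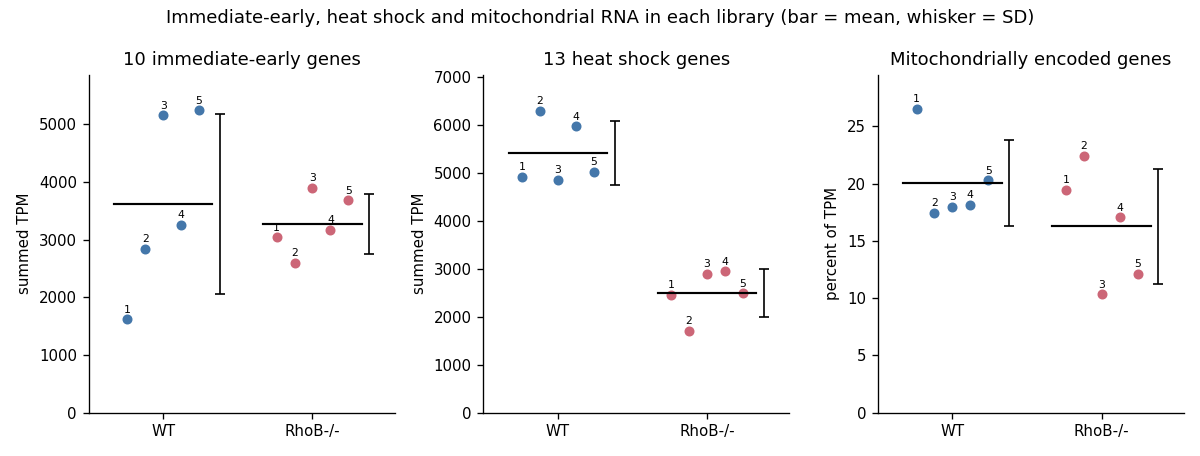
Summed TPM of the 10 immediate-early genes and of 13 heat shock genes, and the mitochondrial share of TPM in percent, in each library (axes from 0). Points are mice with their replicate number, bars means and whiskers SD. Immediate-early sums overlap between genotypes with a wide WT range, 1619 to 5242 TPM, while all heat shock sums are lower in RhoB-/- than in WT libraries.

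Because the genes share the variation between mice, each was also set against the mean log2 level of the other 9 in the same library. This lessened what they share but did not remove it, and in some genes WT replicates 3 and 5 still stood apart. On this scale Atf3 was at -0.37, -0.45, 0.33, -0.18 and 0.38 in WT replicates 1 to 5. The values of Nr4a1 there were -1.86, -1.86, -2.43, -1.80 and -2.35. Nr4a1 went from -2.06 ± 0.303 in WT to -2.83 ± 0.330 in RhoB-/- libraries (SD, n = 5), with no overlap between the groups. Fos went from 2.001 ± 0.0434 to 2.27 ± 0.0728, also with no overlap, so Fos stood higher relative to the other genes in every RhoB-/- library although its TPM overlapped between the groups. In the other 8 genes the groups overlapped. The share of all genes tested without overlap on this scale was not computed. The genes that Fos was set against include Nr4a1, Junb and Ier2, with log2 fold changes of -0.81, -0.40 and -0.39. They also include Zfp36, Atf3 and Fosb, at 0.23, 0.22 and 0.14, so its shift depends on them as well as on Fos. These relative levels depend on each other, were computed after the levels had been seen, and are given with no test.

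The subunits of AP-1 were also set against each other within libraries. The summed level of the FOS family (Fos, Fosb, Fosl1 and Fosl2) was 561, 997, 1699.5, 1155 and 1767 TPM in WT and 1197, 1043, 1467, 1178 and 1399 TPM in RhoB-/- replicates 1 to 5. The summed level of the JUN family (Jun, Junb and Jund) was 766, 1258, 1950.3, 1285 and 1812 TPM in WT and 1044, 938, 1373, 1121 and 1239 TPM in RhoB-/- replicates 1 to 5. Both sums overlapped between genotypes. The ratio of FOS to JUN RNA was 0.732, 0.793, 0.871, 0.899 and 0.975 in WT and 1.15, 1.11, 1.07, 1.05 and 1.13 in RhoB-/- libraries. It was below 1 in all 5 WT libraries and above 1 in all 5 RhoB-/- libraries, with means of 0.854 ± 0.0943 and 1.10 ± 0.0405 (SD, n = 5). As a ratio within a library it does not change with the scaling of the library, and it shows unequal levels, not which family changed. The ratio was chosen after the levels had been seen and is given with no test. The share of such ratios without overlap was not computed, while 14.5% of single genes tested had groups without overlap.

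**Figure D5:**
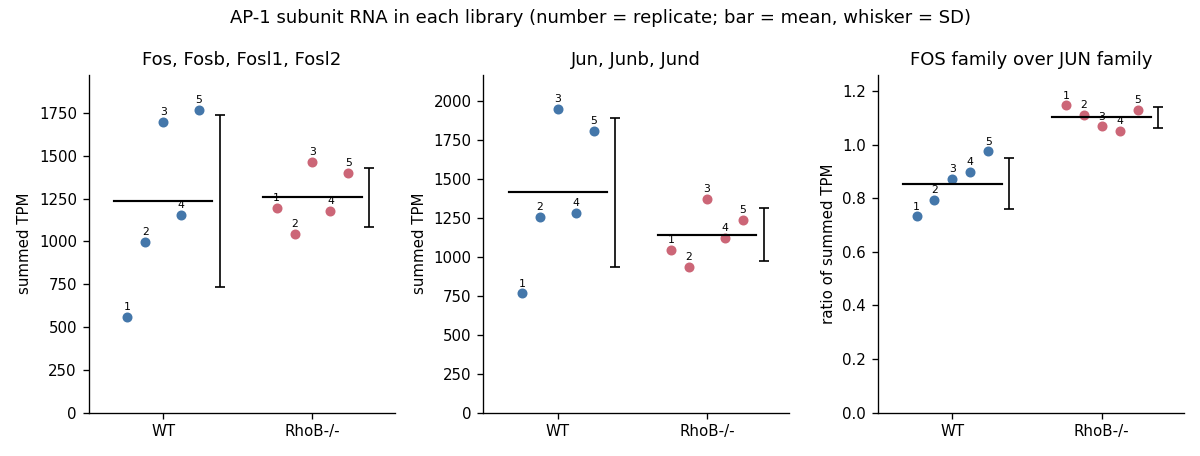
Summed TPM of the FOS family and of the JUN family, and the ratio of the sums, in each library (axes from 0). Points are mice with their replicate number, bars means and whiskers SD. The sums overlap between genotypes, and the ratio lies between 0.732 and 0.975 in WT and between 1.05 and 1.15 in RhoB-/- libraries.

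Of the fixed family relatives of the 10 genes that were tested, Zfp36l1, Zfp36l2 and Dusp4 (given below) were lower, against 13.5% of all genes tested. The other relatives tested did not pass the test. Fosl1 and Fosl2, FOS proteins that are induced later, stood at -0.56 and 0.29 on the log2 fold change scale (adjusted p = 0.208 and 0.242 by limma), and Jund, the JUN protein with the steadiest expression, -0.37, adjusted p = 0.248. Egr2 and Nr4a2, relatives of Egr1 and Nr4a1, had -0.17 and 0.06 (adjusted p = 0.564 and 0.783). Egr3 and Nr4a3 were below the filter, at means of 0.564 and 0.314 TPM in WT and 0.412 and 0.186 TPM in RhoB-/- libraries. Ier3 and Ier5 had -0.15 and 0.50 (adjusted p = 0.69 and 0.0962). The relatives of Zfp36 fell: Zfp36l1 from 45.0 ± 8.91 to 17.6 ± 2.01 TPM (log2 fold change -1.29, adjusted p = 0.000137) and Zfp36l2 from 109.7 ± 31.6 to 64.3 ± 7.78 TPM (-0.72, adjusted p = 0.0141). Among 14 other AP-1 factors 11 were tested, with 1 higher, 0 lower (7.73% and 13.5% of all genes) and a median log2 fold change of -0.06. The higher one was Batf2, a BATF protein known to respond to interferon, which rose from 16.5 ± 1.84 to 44.6 ± 10.5 TPM (1.35, adjusted p = 0.000168).

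Of 54 other immediate-early genes 48 were tested, of which 2 were higher and 14 lower in RhoB-/- IECs, against 7.73% higher and 13.5% lower of all genes tested. The counts were 3 and 11 both with centred libraries and with a replicate block, and the number higher was 1 without WT replicate 2, WT replicate 4, RhoB-/- replicate 1 or RhoB-/- replicate 5. The median log2 fold change was -0.17. The groups did not overlap in 10 of the 48, against 14.5% of all genes tested. Arc, known as a synaptic protein and SRF target, stood at 18.9, 29.7, 25.9, 36.8 and 36.8 TPM in WT replicates 1 to 5, and 7.97, 9.07, 8.67, 8.19 and 6.86 TPM in RhoB-/- replicates 1 to 5. It fell from 29.6 ± 7.64 to 8.15 ± 0.839 TPM (log2 fold change -1.71, adjusted p = 3.95e-05 by limma), with every RhoB-/- library below every WT library. Plk2, a polo-like kinase, stood at 14.2, 21.6, 17.4, 22.6 and 18.0 TPM in WT replicates 1 to 5, and 5.77, 6.30, 6.93, 8.55 and 4.83 TPM in RhoB-/- replicates 1 to 5. It fell from 18.8 ± 3.37 to 6.48 ± 1.39 TPM (-1.40, adjusted p = 9.57e-05), again without overlap. Gem, a small GTPase of the RGK family, fell from 3.19 ± 1.28 to 0.646 ± 0.406 TPM (-1.33, adjusted p = 0.00359). Sgk1, a kinase induced by serum and glucocorticoids, stood at 73.0, 119.7, 155, 80.3 and 173 TPM in WT replicates 1 to 5, and 222, 264, 257, 270.1 and 365 TPM in RhoB-/- replicates 1 to 5. It rose from 120.2 ± 44.2 to 276 ± 53.5 TPM (1.25, adjusted p = 0.00404), with no overlap between the groups.

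The WT order of the 10 genes, replicate 1 lowest with replicates 3 and 5 highest, was shared by 30 of the 48 other immediate-early genes (62.5%) and 5 of the 11 other AP-1 factors. It was found in 5 of 13 genes for MAP kinase phosphatases and feedback inhibitors, 2 of 13 heat shock genes, 1 of 14 upstream factors (Srf), 1 of 21 MAP kinase genes and 0 of 15 genes for AU-rich mRNA decay. Over all genes tested it was 5.66%.

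Genes that act before and after the immediate-early genes were counted in the same fit. Over all lists of related genes, the heat shock genes included, 5 genes were higher and 29 lower, and 3 and 25 without RhoB-/- replicate 5. The number higher was also 3 without WT replicate 2, WT replicate 4 or RhoB-/- replicate 1, and 8 without RhoB-/- replicate 2. Of the genes of these lists named here, Map2k3 alone lost its call when single libraries were left out in turn. Of 15 MAP kinase phosphatases and feedback inhibitors 13 were tested, with 0 higher and 3 lower, against 7.73% and 13.5% of all genes tested, and a median log2 fold change of -0.16. Those that fell were Dusp14 (-1.14, adjusted p = 0.000484 by limma), the receptor signalling inhibitor Spry1 (-0.91, adjusted p = 0.00896) and Dusp4 (-0.78, adjusted p = 0.0145), a nuclear phosphatase of MAP kinases, while Dusp5 and Dusp6, which act on ERK, had 0.12 and 0.34 (adjusted p = 0.838 and 0.245). Of 16 upstream factors and coactivators 14 were tested, with 0 higher, 1 lower (13.5% of all genes) and a median of -0.10. The lower one was the CREB coactivator Crtc1 (-0.53, adjusted p = 0.016). Srf, named after its values were seen, was at 21.3, 29.7, 34.7, 31.9 and 35.7 TPM in WT replicates 1 to 5, and 31.8, 24.0, 34.5, 31.2 and 34.6 TPM in RhoB-/- replicates 1 to 5, a log2 fold change of 0.03, adjusted p = 0.888.

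Of 25 MAP kinase genes 21 were tested, with 2 higher, 1 lower and a median of 0.05, against 7.73% higher and 13.5% lower of all genes tested. The number higher was 8 with centred libraries, 4 with quantile normalization and 0 at the thresholds of the study, and it was 4 without RhoB-/- replicate 2 and 1 without any other single library. Over all genes tested the number higher also rose, from 995 to 2010 with centring and to 1587 with quantile normalization. In the p38 branch, Mapk13 (p38 delta) was higher (0.58, adjusted p = 0.0138 by limma), and of the p38 kinases Map2k3 was higher (0.44, adjusted p = 0.0477) and Map2k6 lower (-1.15, adjusted p = 0.000144). The call of Map2k3 was lost in 9 of the 10 fits that leave out a library, all but the one without RhoB-/- replicate 2, with adjusted p up to 0.114. Of 15 genes for AU-rich mRNA decay 15 were tested, with 0 higher, 1 lower and a median of -0.16, against 13.5% lower of all genes tested. The number lower was 6 without mitochondrial genes, a setting in which the number over all genes tested rose from 1734 to 3729. Among these 15 genes it was 0 with a replicate block or at the thresholds of the study. The lower one was Hnrnpd (AUF1), at -0.44, adjusted p = 0.0195. Hnrnpd and Crtc1 lost their calls with a replicate block, and Dusp4 with quantile normalization.

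Of the 13 heat shock genes 9 were lower and 0 higher, with a median log2 fold change of -0.70, against 13.5% of all genes lower. Hspa1a, an inducible HSP70 gene, stood at 738, 1065, 713, 977 and 718 TPM in WT replicates 1 to 5, and 71.7, 46.1, 68.5, 38.4 and 49.3 TPM in RhoB-/- replicates 1 to 5. It fell from 842 ± 166 to 54.8 ± 14.5 TPM (-3.93, adjusted p = 1.2e-07 by limma), and every RhoB-/- library was below every WT library. Hspa1b, its near-identical copy, fell in parallel (-3.47, adjusted p = 5.53e-07), and reads of the pair may not be separated. The small chaperone Hspb1 (-2.66, adjusted p = 0.0051), the HSP70 cofactor Hsph1 (-1.52, adjusted p = 0.00113) and Hsp90aa1 (-1.31, adjusted p = 0.000214), an inducible HSP90, also fell. The 10 immediate-early genes and the heat shock genes, both inducible by stress, thus differed in their counts, 1 of 10 and 9 of 13 lower, a difference that was not tested.

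The genes most like the 10 in their pattern over the 10 libraries were ranked by the root mean square difference between a gene's log2 profile and the mean profile, each relative to its own mean. The 10 nearest were Btg2 (0.0712), Pnrc1 (0.114), Sat1 (0.148), Neat1 (0.156), Klf11 (0.160), Csrnp1 (0.185), Ccnl1 (0.186), Maff (0.187), Ddit3 (0.195) and Gadd45a (0.196), against a median of 0.518 over all genes tested. Of these, 4 stand in the lists of related genes. Btg2, an antiproliferative gene known to be induced early, was at 99.8, 175, 341, 205 and 372 TPM in WT replicates 1 to 5, and 174, 151, 224, 199 and 229 TPM in RhoB-/- replicates 1 to 5. It shared the low WT replicate 1 and the high WT replicates 3 and 5 and its log2 fold change was -0.15, adjusted p = 0.749 by limma. Of the 10 genes that make up the mean profile, Nr4a1 was the least like it, at 0.430 and rank 1541, while the other 9 ranked between 2 and 77.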

How the data were processed

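The authors used SeqPrep and Sickle for trimming, HISAT2 for alignment, StringTie for assembly and RSEM for quantification, and deposited TPM values for 5 WT and 5 RhoB-/- libraries. The submitters' processing notes name the build GRCm38.p6 and also edgeR, with no role. Tool versions and the annotation release are not given in the sources used here. The deposited TPM are relative to each library and keep no read counts, so depth and counting error are unknown and count-based tests were not run.

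Genotypes and replicate numbers were taken from the labels. Genes averaging at least 1 TPM (12870) were compared as log2(TPM + 1) with limma 3.58.1 (lmFit, eBayes with a trend) in R 4.3.3, with Benjamini-Hochberg adjustment over these genes and a call at an adjusted p below 0.05. Fold changes on this scale understate the change of low genes. Single genes were also compared by a two-sided exact permutation test over all labellings of the libraries, whose smallest p is 0.00794. On simulated data of 12870 genes, with 200 changed by 1 on the log2 scale, the fit recovered 81.5%, and 5.78% of its calls were false. These shares describe the simulated data only. In the measured data 995 genes were called higher and 1734 lower. Over the immediate-early genes the median SD of log2 levels was 0.698 in WT and 0.267 in RhoB-/- libraries. Over all genes tested it was 0.204 and 0.241. The shares of changes found and of false calls among the immediate-early genes were not estimated.

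The 10 genes and the lists were chosen with earlier results of these data known. Named were the 10 genes, Rhob, fixed family relatives, up to 5 called genes with the largest change per list, and the 10 genes nearest in profile. Any other gene was named after its values were seen. The alternatives were a pseudocount of 0.1, no filter, median centring, quantile normalization, leaving out mitochondrial genes, no trend, a replicate block, each library left out, the study's thresholds and the ratio of mean TPM. The spread without WT replicate 1 was added after seeing the data.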

Additional observations from a re-analysis of the deposited data

Results flagged for a closer look

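Among 104 groups of 5 values examined, 4 held a value set apart from the rest by more than 0.71 of the group's range, and chance gives about 1 in 20 groups (5.2 of them). Rhob was at 110.9 TPM in RhoB-/- replicate 5, while the other RhoB-/- libraries were at 0.09 to 0.57 TPM. Ier2 was at 345 TPM in RhoB-/- replicate 3, while the other RhoB-/- libraries were at 181 to 226 TPM. Fosl2 was at 77.0 TPM in RhoB-/- replicate 5, against 45.8 to 53.2 TPM in the other RhoB-/- libraries. Hnrnpd was at 148 TPM in WT replicate 2.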

How the results depend on the processing

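TPM without read counts limits what can be said: the genotype comparison rests on the spread between 5 mice per group, and no value carries a counting error. Nr4a1 lost its call without the filter on low TPM (log2 fold change -0.81, adjusted p = 0.0821 by limma), which left 0 members lower. Under that setting more genes enter the adjustment. With the libraries centred, Jun turned to 0.0098 and Egr1 to 0.10, and as the ratio of mean TPM Atf3 turned to -0.030. In the related lists, the 5 genes called higher became 12 with centring, 9 with quantile normalization and 3 at the study's thresholds. The cause was not tested. Over all genes tested, 995 were higher and 1734 lower, 2010 and 1645 with centring, 1587 and 1975 with quantile normalization, 1101 and 3729 without mitochondrial genes, 918 and 1197 without the filter, and 820 and 1072 at the study's thresholds. The median log2 fold change was -0.13, and -0.01 with centring, -0.05 with quantile normalization and -0.20 without mitochondrial genes.

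Leaving out each library in turn gave 0 to 0 members higher and 0 to 1 lower, 3 to 8 related genes higher and 25 to 31 lower, and 716 to 1158 of all genes higher and 860 to 2929 lower. The log2 fold changes ranged from -0.14 to 0.29 for Fos, -0.14 to 0.29 for Fosb, -0.31 to 0.018 for Jun, -0.62 to -0.24 for Junb, -0.32 to 0.24 for Egr1, -0.11 to 0.49 for Atf3, -0.66 to -0.23 for Ier2, -0.47 to -0.07 for Dusp1, -1.03 to -0.71 for Nr4a1 and -0.072 to 0.43 for Zfp36. Without WT replicate 1, Fos (-0.14), Fosb (-0.14), Atf3 (-0.11) and Zfp36 (-0.072) turned negative.

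The replicate numbers are shared by both genotypes, but the mice are different animals. Same-numbered libraries had deviations correlated between -0.0874 and 0.0720 over 5 pairs, and 1 of 5 WT libraries correlated best with its own number, so the numbers were not taken as pairs. With a replicate block Nr4a1 was at -0.81 (adjusted p = 0.0126 by limma) and no other member was called. Of the related genes named here, Crtc1, Hnrnpd and Map2k3 lost their calls. Over all lists of related genes 5 were higher and 23 lower with the block, against 5 and 29 without it. Over all genes 836 were higher and 1059 lower with the block.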
